A study of Mus musculus with 20 samples.

Results

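The genes described are 77 mouse genes for the proteins of the mitochondrial ribosome, out of 30265 genes in each of 2 count tables. They were chosen by gene name alone, as protein-coding genes whose symbol starts with Mrpl or Mrps followed by a digit. Mrpl (48 genes) stands for the large and Mrps (29 genes) for the small subunit, though a few Mrps names do not match the protein's place. The name rule used no measured value, but the family was selected on earlier results of these same data, so counts of its members in either comparison are a description and not independent evidence. A further gene of that naming, Mrpl33, was not analysed here.

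Mitochondria keep their own small genome, and the few proteins it encodes are made by a dedicated ribosome inside the organelle. The RNA of that ribosome is transcribed in the mitochondrion, while its proteins are encoded in the nucleus, made in the cytoplasm and imported. Many of the proteins have counterparts in bacterial ribosomes and others are found only in mitochondrial ribosomes. The products of mitochondrial translation are subunits of the respiratory chain and ATP synthase, on which the blastocyst draws as it expands.

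Polyadenylated RNA was measured in 4 libraries of embryonic stem cells (ESCs) derived from C57BL/6J mice and in 16 libraries of embryos at embryonic day 4.5, the late blastocyst stage. ESCs grew with LIF on irradiated mouse embryonic fibroblast feeders and overexpressed either green fluorescent protein (GFP, 2 libraries) or Klf5 (2 libraries), a Krüppel-like zinc-finger transcription factor. Embryos, whose strain the labels spell C57BL/5J, were cultured in KSOM with BSA and had received a scramble siRNA (10 libraries) or an siRNA against Klf5 (6 libraries). The ESC comparison was meant to raise Klf5 and the embryo comparison to lower it. No label states that ESC replicates came from separate cultures, and the p-values of that comparison then reflect only the spread between these libraries, which may be technical. They also do not say whether an embryo library held 1 embryo or a pool. Library numbers run through the scramble group first and the Klf5 siRNA group after it, so group and library order cannot be told apart.

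Library totals were 26775363 to 37482631 counts in ESCs and 14701519 to 24939629 in embryos, and all 77 members had a count in all 20 libraries. Klf5 was at 80.5 and 70.8 CPM (counts relative to the scaled library size) in GFP ESCs and at 942 and 882 CPM in Klf5 ESCs. In scramble embryos it ran from 382 to 592 CPM, and in Klf5 siRNA embryos 1 to 6 it was 543, 111, 195, 80.8, 117 and 292 CPM, so the library labelled Klf5 siRNA 1 held as much Klf5 as the controls. The fitted log2 fold change of Klf5 was 3.59 in ESCs, called in 14 of 14 other settings of the fit. In embryos it was -1.07 (edgeR's quasi-likelihood test, adjusted p = 0.0273), called in 21 of 30 other settings. The settings that lost the call included leaving out any 1 of Klf5 siRNA 2, 3, 4 and 5. Markers of fibroblasts summed to 627 to 1150 CPM in ESC libraries, which had feeders, and to 0.0603 to 22.3 CPM in embryos, where 4 to 7 of the 8 markers were at 0. Pluripotency markers (Pou5f1, Nanog and others) summed to 4594 to 5631 CPM in ESCs and 3690 to 16909 CPM in embryos. Scramble embryos 5 and 6 stood apart from the other 8 scramble libraries, with the lowest shares of counts on cytosolic ribosomal protein genes (3.75% and 5.00%) and on mitochondrially encoded protein genes (4.34% and 5.48%).

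Short motifs in the promoter, which the name rule did not use, were counted next. RefSeq promoter windows (GRCm38.p6, 250 bases before to 50 after the start) were matched for 68 of the 77 members, as 74 windows, and were searched on both strands. The letters CCGGAAG, a core that ETS-family factors bind, stood in 33.8% of the members' windows. They stood in 11.6% of 21263 windows of all protein-coding genes, tested in these libraries or not. For AAGATGG, a YY1-type core, the shares were 17.6% and 6.24%, and for GCATGCGC, an NRF1-type core, 9.46% and 3.52%. The SP/KLF-type letters GGGCGGGG were about as frequent in members (24.3%) as in all windows (23.6%), and the KLF-type letters GGGTGTGG stood in 1.35% of the members' windows against 3.63%. A TATA match (TATAAA) was found in 6.76% against 12.6%, and an E-box (CACGTG) in 9.46% against 7.84%. A match is a description of the letters and not a bound site.

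The 120 bases before the RefSeq start are printed for 5 members that the results below turn on, with matches in capitals (CCGGAAG or its reverse complement, AAGATGG and the reverse complement of GCATGCGC). Mrpl22, Mrpl34 and Mrpl58 were higher in Klf5 siRNA embryos, Mrpl52 carried both an ETS and a YY1-type match and did not pass the test, and Mrps2 was lower on average and held none of the searched motifs in this stretch.
Mrpl22, chr11:58171544-58171663, plus strand: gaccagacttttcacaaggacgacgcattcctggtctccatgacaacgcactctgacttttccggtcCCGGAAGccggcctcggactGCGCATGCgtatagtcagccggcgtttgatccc
Mrpl34, chr8:71464806-71464925, plus strand: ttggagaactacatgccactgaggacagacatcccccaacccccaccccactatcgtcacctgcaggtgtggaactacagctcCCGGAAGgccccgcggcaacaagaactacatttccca
Mrpl58, chr11:115403632-115403751, plus strand: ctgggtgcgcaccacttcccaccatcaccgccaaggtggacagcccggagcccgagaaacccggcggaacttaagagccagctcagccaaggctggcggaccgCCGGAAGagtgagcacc
Mrpl52, chr14:54426789-54426908, plus strand: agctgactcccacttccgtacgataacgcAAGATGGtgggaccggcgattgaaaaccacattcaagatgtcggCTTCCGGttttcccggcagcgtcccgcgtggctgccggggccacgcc
Mrps2, chr2:28467946-28468065, plus strand: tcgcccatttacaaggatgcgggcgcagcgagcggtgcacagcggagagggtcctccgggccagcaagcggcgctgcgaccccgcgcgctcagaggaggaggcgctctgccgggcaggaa
Of the 44 members with a promoter window that were higher in Klf5 siRNA embryos, 19 (43.2%) held CCGGAAG, and of the 24 others 6 (25.0%) did. The shares were 22.7% and 12.5% for AAGATGG, 9.09% and 12.5% for GCATGCGC, and 22.7% and 25.0% for GGGCGGGG, so the split had no common direction over the motifs. None of these splits was tested.

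The summed level of the family separated the embryo groups. In scramble embryos the 77 genes summed to 7824 to 12858 CPM, with a mean of 10275 ± 1721 (SD, n = 10), and in Klf5 siRNA embryos to 19731 to 25479 CPM, with a mean of 21949 ± 1985 (SD, n = 6). No Klf5 siRNA library came within the scramble range. As a share of all counts, before any scaling, the family took 0.879% to 1.45% in scramble embryos and 1.65% to 2.06% in Klf5 siRNA embryos, again without overlap. The library labelled Klf5 siRNA 1, whose Klf5 level was that of the controls, was at 21226 CPM, inside the range of the other Klf5 siRNA libraries. Both subunits moved alike, the large from 6077 ± 1134 to 12527 ± 1047 CPM and the small from 4198 ± 809 to 9422 ± 1160 CPM (mean ± SD, n = 10 and 6).

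**Figure D1:**
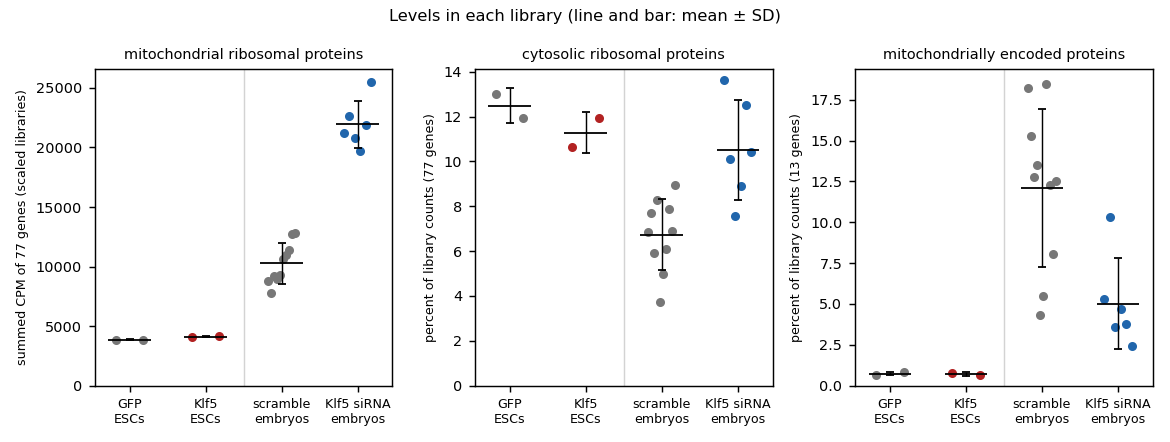
Levels in each of the 20 libraries (points) with the mean and SD of each group (line and bar). The left panel gives the summed CPM of the 77 mitochondrial ribosomal protein genes, the middle and right panels the percent of library counts on 77 cytosolic ribosomal and 13 mitochondrially encoded protein genes. The 6 Klf5 siRNA embryos lie at 19731 to 25479 CPM in the left panel, above all 10 scramble embryos (7824 to 12858), while in the other panels the embryo groups overlap.

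Gene by gene, 49 of the 77 members rose in Klf5 siRNA embryos and 0 fell (edgeR's quasi-likelihood test, Benjamini-Hochberg adjusted p under 0.05 over 12385 genes), beside 12.0% of all genes tested that rose and 7.74% that fell. The median log2 fold change of the members was 0.98, against -0.01 over all genes tested, with 72 of 77 members above 0. At an unadjusted p under 0.05, 61 members passed, 60 of them higher, beside 4112 of all 12385 genes tested, 2288 of them higher. In 23 members every Klf5 siRNA library lay above every scramble library, and in 0 members below, where these patterns held for 2.91% and 1.91% of all genes tested. Scaling to total counts instead shifted the median of all genes to -0.43 and left 30 members higher and 1, Mrps2, lower; over all genes this scaling called 745 genes higher and 2182 lower, where the main scaling called 1489 and 958. A change of scaling shifts all genes by about the same amount. The members' median relative to that of all genes, 0.99 under either scaling, was therefore bound to stay and is no check.

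**Figure D2:**
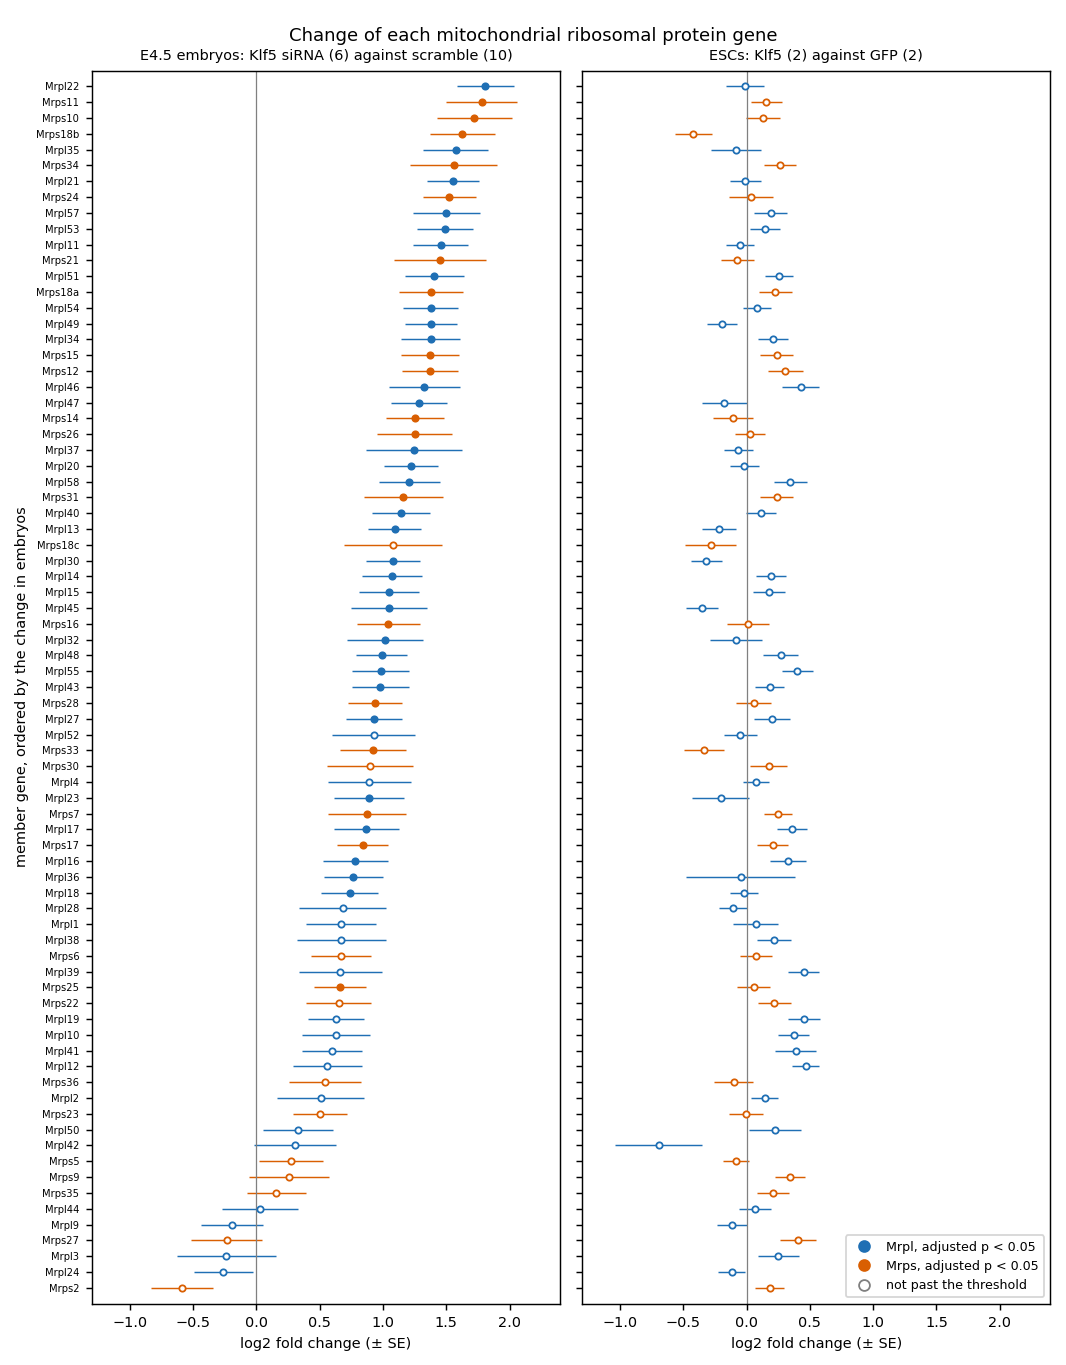
Log2 fold change of each of the 77 members (points) with its standard error (bars), ordered by the change in embryos, for Klf5 siRNA against scramble embryos on the left and Klf5 against GFP ESCs on the right. Filled points passed an adjusted p of 0.05: 49 on the left, between 0.66 and 1.81, and 0 on the right, where the changes lie between -0.70 and 0.47.

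Among the 28 large-subunit members with a bacterial counterpart, 18 rose and the median log2 fold change was 0.89. Mrpl22, which lines the exit tunnel of the nascent chain (chr11:58171661-58179565, GRCm38), ran from 68.2 to 150 CPM with a median of 124 in scramble embryos and from 193 to 614 with a median of 403 in Klf5 siRNA embryos. No embryo of one group overlapped the other, and the log2 fold change was 1.81 ± 0.22 (SE; edgeR adjusted p = 4.57e-05). It carries the ETS and NRF1-type matches printed above. Mrpl21, a ribosomal RNA-binding protein (chr19:3282901-3292837), was at 77.5 to 187 CPM (median 125) in scramble and 307 to 457 (median 385) in Klf5 siRNA embryos, without overlap, a log2 fold change of 1.56 ± 0.21 (edgeR adjusted p = 7.56e-05). Both genes have a processed pseudogene of about 97% identity that is not in the tables, so their counts could include reads of it.

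Mrpl11, which sits at the base of the stalk where translation factors dock (chr19:4962147-4966999), was at 43.8 to 106 CPM in scramble embryos (median 67.2) and at 145 to 264 in Klf5 siRNA embryos (median 198). Its groups did not overlap (log2 fold change 1.46 ± 0.21 SE, edgeR adjusted p = 0.000195). Mrpl10 and Mrpl12 form the stalk itself. Mrpl10 ran from 33.4 to 99.2 CPM (median 51.9) in scramble and from 71.7 to 171 (median 79.8) in Klf5 siRNA embryos, and Mrpl12 from 129 to 517 (median 236) and from 244 to 560 (median 383). Both ranges overlapped and neither stalk gene passed the test (log2 fold changes 0.63 ± 0.27 and 0.56 ± 0.27 SE, edgeR adjusted p = 0.107 and 0.157). Mrpl34, another bacterial-type protein (chr8:71464959-71465747), stood at 62.6 to 173 CPM in scramble and at 205 to 379 in Klf5 siRNA embryos, without overlap, with a log2 fold change of 1.38 ± 0.23 (edgeR adjusted p = 0.000488).

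Of the 21 members of the large subunit that are specific to mitochondria, 13 rose, with a median log2 fold change of 1.05, and all 21 were above 0. Mrpl53, which lies near the stalk (chr6:83109040-83109939), was at 59.6 to 144 CPM (median 92.3) in scramble and at 190 to 373 (median 250) in Klf5 siRNA embryos. Its log2 fold change was 1.49 ± 0.22 (edgeR adjusted p = 0.000207), but its whole transcript of 695 bases is shared with another protein-coding model on the same strand, Gm42688, so how reads were split between them is uncertain. Mrpl49 (chr19:6053622-6057785) ran from 63.3 to 134 CPM and from 177 to 323 CPM in the respective groups, and Mrpl54 (chr10:81264713-81266934) from 84.1 to 203 and from 253 to 422. In both genes the groups did not overlap and the log2 fold change was 1.38 (SE 0.21 and 0.22; edgeR adjusted p = 0.00022 and 0.000302).

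Mrpl58, a peptidyl-tRNA hydrolase that became a structural part of the large subunit and helps to free stalled ribosomes (chr11:115403752-115412674), was at 53.6 to 142 CPM (median 93.2) in scramble and 181 to 260 (median 230) in Klf5 siRNA embryos. The groups did not overlap, with a log2 fold change of 1.21 ± 0.24 (edgeR adjusted p = 0.00176). Mrpl52, with an ETS and a YY1-type match in the printed stretch, ran from 16.6 to 89.1 CPM and from 52.6 to 170 CPM. The ranges overlapped and its log2 fold change of 0.93 ± 0.33 missed the threshold (edgeR adjusted p = 0.0526).

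In the small subunit, 11 of 16 members with a bacterial counterpart rose (median log2 fold change 1.06), and 6 of 10 that are specific to mitochondria (median 0.79). Mrps24, which helps to line the entry of the messenger RNA (chr11:5703983-5715680), ran from 209 to 620 CPM (median 417) in scramble embryos and from 911 to 1575 (median 1178) in Klf5 siRNA embryos, without overlap, a log2 fold change of 1.53 ± 0.21 (edgeR adjusted p = 0.000117). Mrps24 shares 226 exonic bases with Urgcp on the same strand. Mrps11, a protein of the platform (chr7:78783119-78792989), was at 22.0 to 87.0 CPM (median 62.6) and at 114 to 261 (median 205), also apart, with a log2 fold change of 1.78 ± 0.28 (edgeR adjusted p = 0.000314). Mrps12, a protein of the decoding centre (chr7:28739641-28741820), was at 100 to 235 CPM and at 281 to 502 CPM, with a log2 fold change of 1.37 ± 0.22 (edgeR adjusted p = 0.000355) and no overlap.

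The 3 Mrps18 paralogs sit at different places, Mrps18a in the large subunit and Mrps18b and Mrps18c in the small one. Mrps18a was at 41.1 to 148 CPM (median 88.2) in scramble and at 148 to 300 (median 272) in Klf5 siRNA embryos, with a log2 fold change of 1.38 ± 0.25 (edgeR adjusted p = 0.001). Mrps18b was at 139 to 460 CPM (median 239) and at 544 to 1033 (median 810), with a log2 fold change of 1.63 ± 0.26 (edgeR adjusted p = 0.000323). In both the groups were apart. Mrps18b has a processed pseudogene of 99.8% identity over 417 bases among the genes counted, which could take a part of its counts. Mrps18c was the most variable of the 3, at 209 to 1583 CPM (median 783) in scramble and 454 to 2355 (median 2015) in Klf5 siRNA embryos. Klf5 siRNA 3, at 454 CPM, lay below 8 of the 10 scramble libraries, and the log2 fold change of 1.08 ± 0.39 did not pass (edgeR adjusted p = 0.0567).

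**Figure D3:**
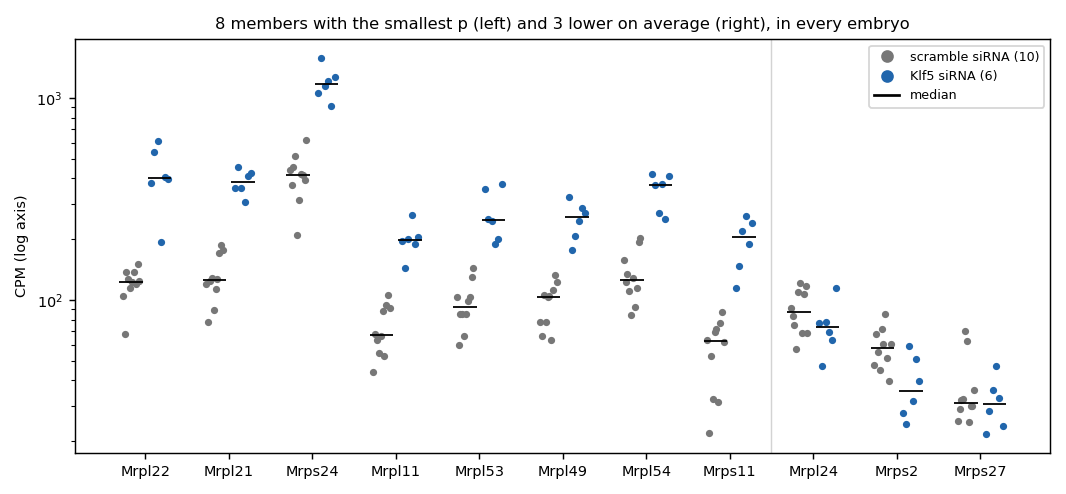
CPM (log axis) of 11 members in every embryo, scramble in grey (10 libraries) and Klf5 siRNA in blue (6 libraries), with the group median as a line. The 8 members on the left have the smallest p and their groups do not overlap, while Mrpl24, Mrps2 and Mrps27 on the right, lower on average, have overlapping groups.

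No member fell by the test, at an adjusted or an unadjusted threshold, apart from Mrps2 at an unadjusted p under 0.05. Mrps2, a small-subunit protein with a bacterial counterpart (chr2:28468066-28471178), ran from 39.6 to 85.3 CPM (median 58.1) in scramble and from 24.4 to 59.6 (median 35.6) in Klf5 siRNA embryos, with overlapping groups and a log2 fold change of -0.59 ± 0.25 (edgeR adjusted p = 0.0973). Without Klf5 siRNA 3 its edgeR adjusted p passed 0.05, the only setting of that kind that called a member lower. Mrpl24 ran from 57.2 to 121 CPM and from 47.3 to 115 CPM (log2 fold change -0.26 ± 0.23), and Mrps27 from 24.8 to 70.7 and from 21.7 to 47.1 (-0.23 ± 0.28), neither past the threshold (edgeR adjusted p = 0.462 and 0.597). In these 3 members no Klf5 siRNA library exceeded the highest scramble library. Mrpl24 shares 594 exonic bases with Rrnad1 on the opposite strand, and no source states that the counting used strand. Mrps36, which is now counted as a subunit of the 2-oxoglutarate dehydrogenase complex and not of the ribosome, was at 26.6 to 91.7 CPM and 52.1 to 106 CPM (log2 fold change 0.54 ± 0.29, edgeR adjusted p = 0.191). Processed pseudogenes of Mrps36, such as Mrps36-ps1 (99.3% identity) and Mrps36-ps2 (99.0%), are among the genes counted and could take a part of its counts.

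Raising Klf5 in ESCs was followed by no called change of the family. Of the 77 members, 0 rose and 0 fell by edgeR's quasi-likelihood test with Benjamini-Hochberg adjustment, beside 1.67% of 15968 genes tested that rose and 1.11% that fell. The median log2 fold change was 0.11, against 0.00 over all genes, 49 members were above 0, and 15 had an unadjusted p under 0.05, of which 12 were higher. Of all 15968 genes tested, 7927 were above 0 and 3710 had an unadjusted p under 0.05, 1986 of them higher. DESeq2 called 3 members higher, Mrpl12, Mrpl19 and Mrpl39, where it called 799 of 21724 genes (3.68%) higher. With limma voom 0 members were called, beside 0.407% of all genes higher. The summed level was 3818 and 3873 CPM in GFP ESCs and 4074 and 4154 CPM in Klf5 ESCs.

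Mrpl12 was at 119 and 127 CPM in GFP ESCs and at 174 and 167 CPM in Klf5 ESCs, the smallest p of the family (log2 fold change 0.47 ± 0.11 SE, edgeR adjusted p = 0.0647). Mrpl39 went from 31.5 and 34.0 CPM to 45.4 and 44.0 CPM (0.45 ± 0.12, edgeR adjusted p = 0.0917) and Mrpl19 from 26.2 and 26.7 to 37.6 and 34.9 (0.45 ± 0.13, edgeR adjusted p = 0.0949). In these genes both Klf5 libraries lay above both GFP libraries. With 2 libraries against 2 that also held for 4618 of 15968 genes tested, and the reverse for 4380. Mrpl19 shares 1962 exonic bases with Gcfc2 on the opposite strand. In the other direction, Mrps18b was at 53.7 and 42.8 CPM in GFP and at 35.5 and 36.4 CPM in Klf5 ESCs (log2 fold change -0.42 ± 0.15, edgeR adjusted p = 0.147). Mrpl45 went from 113 and 93.5 to 78.6 and 82.9 CPM, and Mrpl30 from 69.2 and 60.6 to 53.3 and 50.7 CPM, neither called. Feeder fibroblast markers moved alongside, from 627 and 803 CPM in GFP to 1150 and 1140 CPM in Klf5 ESCs. Primitive endoderm markers summed to 42.8 and 37.7 CPM in GFP and to 100 and 223 CPM in Klf5 ESCs. Of these 6 markers edgeR called 2 higher, beside 1.67% of all genes tested. Trophectoderm markers went from 1694 and 783 to 242 and 595 CPM and pluripotency markers from 4718 and 4594 to 5631 and 5353 CPM, with 0 called. The part of these cell types in the members' values was not tested. Across the 77 members the fold changes of the 2 experiments, which share no library, had a rank correlation of -0.15, given as a description.

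Subunits of the same ribosome that carry other names were read from a fixed list of 5. In embryos 2 of the 5 rose and 0 fell, with a median log2 fold change of 0.65. The shares over all genes tested in embryos were 12.0% that rose and 7.74% that fell. Gadd45gip1, a protein at the tunnel exit of the large subunit, was at 35.9 to 100 CPM (median 70.4) in scramble and 168 to 353 (median 235) in Klf5 siRNA embryos, apart in all libraries, with a log2 fold change of 1.82 ± 0.22 (edgeR adjusted p = 4.57e-05). Aurkaip1 rose by a log2 fold change of 0.65 ± 0.22 (edgeR adjusted p = 0.0408), a call made in only 11 of 30 other settings. It did not pass with limma voom (0.62, adjusted p = 0.0548), total counts (0.25) or the length offset (0.09), nor without any 1 of scramble 1, 2, 4, 5, 7 and 8 or Klf5 siRNA 1, 3, 5 and 6 (0.50 to 0.64). Dap3 (0.07 ± 0.25), Chchd1 (0.69 ± 0.30) and Ptcd3 (0.25 ± 0.35) did not pass. In ESCs none of the 5 passed by edgeR, with 2 at an unadjusted p under 0.05, and none by DESeq2 or limma voom. That unadjusted threshold was passed by 3710 of all 15968 genes tested in ESCs.

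The enzymes and factors that serve this ribosome were counted from 4 further lists, beside the 12.0% of all genes tested in embryos that rose and the 7.74% that fell. Of 24 assembly factors tested in embryos, 2 rose, the GTPase Mtg2 (log2 fold change 0.92 ± 0.28) and the endonuclease Ybey (1.26 ± 0.36), 0 fell and the median was 0.02. The call for Mtg2 was made in 20 of 30 other settings, not with limma voom (0.74, adjusted p = 0.0679) or total counts (0.44), and not without Klf5 siRNA 1 (0.58) or 2 (0.79). The call for Ybey was made in 24 of 30, not with limma voom (0.99, adjusted p = 0.0547) and not without Klf5 siRNA 2 (0.75). Of 16 translation factors 0 rose and 1, the elongation factor Gfm1, fell (-0.82 ± 0.25, edgeR adjusted p = 0.028), with a median of -0.34. The call for Gfm1 was lost with the length offset (-0.45) and without Klf5 siRNA 1, 4 or 5 (-0.78 to -0.77). Among 19 mitochondrial tRNA synthetases and partners, 1 rose, Qrsl1 (1.25 ± 0.40), and 4 fell, among them Nars2 (-1.84 ± 0.42), Pars2 (-2.0 ± 0.60) and Iars2 (-0.98 ± 0.28), with a median of -0.11. Of 8 genes for the upkeep and transcription of mitochondrial DNA, 1 rose, Ssbp1, the single-strand DNA-binding protein (0.86 ± 0.23), a call lost with total counts (0.46) and the length offset (0.35). In ESCs, where 25, 16, 20 and 8 genes of these 4 lists were tested, 0 passed by edgeR. An unadjusted p under 0.05 was found for 16 of them in all, beside 3710 of all 15968 genes tested. Of the gene with the smallest p in each list, Cars2, Taco1 and Twnk were higher and Dhx30 lower by DESeq2, and none passed by limma voom.

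The products of the mitochondrial genome were called neither way by edgeR in embryos. The 13 protein genes that this ribosome translates took 4.34% to 18.5% of counts in scramble and 2.45% to 10.3% in Klf5 siRNA embryos, overlapping. At an unadjusted p under 0.05 were 7 of the 13, all 7 lower, beside 4112 of all 12385 genes tested, 2288 of them higher. The median log2 fold change of the 13 was -0.87, and 2 were above 0. The lowest p was that of mt-Co1, at 12652 to 56621 CPM in scramble and 8460 to 29212 CPM in Klf5 siRNA embryos (-0.87 ± 0.33, edgeR adjusted p = 0.0652), which DESeq2 and limma voom both called lower. In ESCs 3 of the 13 fell, mt-Cytb (-0.80 ± 0.12), mt-Nd1 (-0.65 ± 0.12) and mt-Atp8 (-0.79 ± 0.13), beside 1.11% of all genes tested. The calls were made in 11, 6 and 8 of 14 other settings. All 3 were lost without GFP 1 or GFP 2, those of mt-Nd1 and mt-Atp8 also with limma voom (adjusted p = 0.0607 and 0.0548) and with total counts, and mt-Nd1 without either Klf5 library too. With the length offset mt-Atp8 was at -0.34. The 13 genes together took 0.656% and 0.810% of counts in GFP and 0.793% and 0.623% in Klf5 ESCs, overlapping.

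Cytosolic ribosomal protein genes, the parallel family for translation in the cytoplasm, also rose in embryos: 53 of 76 tested rose and 0 fell, with a median log2 fold change of 1.05. Beside them, 12.0% of all genes tested rose and 7.74% fell. Their share of counts was 3.75% to 8.95% in scramble and 7.58% to 13.6% in Klf5 siRNA embryos, overlapping, where the summed share of the mitochondrial family did not overlap. Gene by gene the families were close. In 18 of the 76 cytosolic genes every Klf5 siRNA library lay above every scramble library, beside 23 of the 77 members, and 69.7% and 63.6% rose. In ESCs their median was -0.27 with 0 of 77 called by edgeR and 23 at an unadjusted p under 0.05, all 23 lower. Of all 15968 genes tested there, 3710 had an unadjusted p under 0.05, 1986 of them higher. Above 0 were 0 of the 77 cytosolic genes and 7927 of all genes tested. Both Klf5 libraries lay below both GFP libraries in 44 of the 77, and in 4380 of all genes tested. With cytosolic ribosomal and mitochondrially encoded genes left out before scaling, 48 mitochondrial ribosomal members still rose in embryos. With the percent of counts on mitochondrially encoded genes as a covariate 35 rose, 32 of them among the 49, and the median log2 fold change was 0.79. These fits called 10.7% and 9.93% of all genes tested higher.

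Markers of cell types moved in the same embryos. Of 6 trophectoderm markers 5 fell in Klf5 siRNA embryos (median log2 fold change -1.78), and their summed level was 2016 to 8222 CPM in scramble and 164 to 2280 CPM in Klf5 siRNA embryos. The shares over all genes tested were 7.74% that fell and 12.0% that rose. Of 6 primitive endoderm markers 2 fell, with summed levels of 325 to 593 and 179 to 483 CPM. Of 6 pluripotency markers 0 were called, with log2 fold changes from -1.09 to 1.12 and 2 at an unadjusted p under 0.05, both higher. Fibroblast markers were near 0 but moved too, with summed levels of 0.0603 to 1.56 CPM in scramble and 2.23 to 22.3 CPM in Klf5 siRNA embryos, apart in all libraries. Thy1, the only 1 of the 8 that passed the filter, rose with overlapping groups (log2 fold change 4.25 ± 1.02, edgeR adjusted p = 0.00621). The part of cell type proportions in the members' change was not tested. In these bulk libraries fewer cells of a type and less RNA per cell cannot be told apart.

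Transcript length and level moved with the embryo change over all genes, and the members are short and abundant. Their median transcript length was 1226 bases, against 2525 for all genes tested in embryos, and 62 of 77 were shorter than that median. When all genes tested were divided by length into 10 classes of equal size, the median log2 fold change fell from 0.91 in the shortest class (36.1% of genes higher) to -0.34 in the longest (4.14% higher). Members' medians were 1.03 among the 24 in class 1, 0.89 among 19 in class 2 and 0.82 among 8 in class 3, where all genes had medians of 0.91, 0.57 and 0.24. Classes 4 to 10 held 1 to 7 members each, with medians of 0.63 to 1.27 where all genes had medians of -0.34 to -0.03. In the class with the highest mean log2 CPM, of 10 classes by that measure, 36 of 42 members and 41.2% of all genes rose.

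With an offset for the trend of each library with length, 37 members rose, 33 of them among the 49, and 1 fell (Mrpl24), with a median log2 fold change of 0.61 against 0.10 over all genes. Of all genes in that fit, 10.4% rose. In ESCs the trend over length ran the other way, from a median of -0.17 in the shortest class to 0.01 in the longest. Members in the shortest class there had a median of 0.05.

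**Figure D4:**
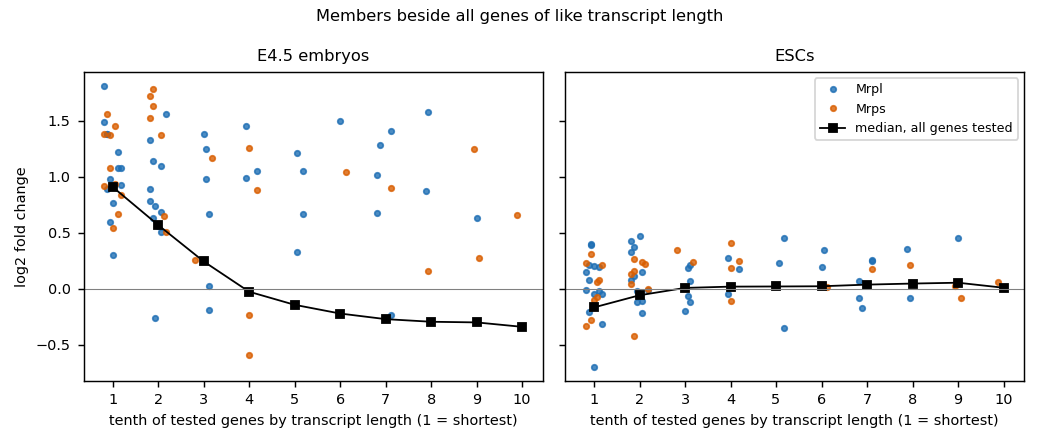
Log2 fold change of each member (points, blue Mrpl and orange Mrps) by the class of transcript length it falls in (10 classes of equal size, 1 is the shortest), with the median of all genes tested in that class (black squares), for embryos on the left and ESCs on the right. In embryos the black line falls from 0.91 to -0.34 while the members' medians stay between 0.63 and 1.27.

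Many members share their promoter region with a neighbour. For 33 of 77 (42.9%) the start of another protein-coding gene lay within 1000 bases on the opposite strand, against 10.9% of 21433 protein-coding genes in the tables and 16.7% of 11929 tested in embryos. Of 27 partners that were tested and are no members, 4 rose in Klf5 siRNA embryos (Tmem63b, Psma2, Ndufs6 and Fau), 1 fell (Ncapd2) and the median log2 fold change was 0.09, where 12.0% and 7.74% of all genes tested rose and fell. Ncapd2, a condensin subunit whose start lies 100 bases from that of Mrpl51, changed by -1.02 ± 0.27 while Mrpl51 changed by 1.41 ± 0.24 (edgeR adjusted p = 0.0105 and 0.000484). In the pair of Mrpl46 and Mrps11, both members and 412 bases apart at their starts, both rose (1.33 and 1.78), but their exons overlap by 173 bases on opposite strands. Over the family, 23 members overlap exons of another gene and 21 have a near-identical stretch elsewhere (at least 95% over at least 200 bases). The 38 with neither held 21 that rose, with a median log2 fold change of 0.93.

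Levels per length differed widely within the family. In GFP ESCs mean CPM per kilobase of transcript ran from 1.94 to 241 with a median of 32.3, and in scramble embryos from 6.61 to 1272 with a median of 72.3. The members at the top in GFP ESCs were Mrpl28 (241 ± 10.7 CPM per kilobase, SD, n = 2), Mrpl52 (194 ± 3.75) and Mrpl34 (166 ± 16.1), and those at the bottom Mrpl35 (1.94 ± 0.18), Mrpl32 (2.39 ± 0.26) and Mrpl1 (2.65 ± 0.08). In scramble embryos Mrps18c (1272 ± 697 CPM per kilobase, SD, n = 10), Mrps21 (623 ± 267) and Mrps33 (507 ± 184) were at the top, with overlapping spreads, and Mrpl32 (6.61 ± 2.83), Mrps5 (8.98 ± 2.16) and Mrpl19 (10.6 ± 3.03) at the bottom, also overlapping.

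The order was partly shared, with a rank correlation of 0.58 between the control groups over the 77 genes, a description that ties each gene's length into both axes. Mrps18c held rank 61 of 77 in GFP ESCs (8.34 CPM before division by length) and rank 1 in scramble embryos (812 CPM), and Mrpl28 rank 1 and rank 14. Mrps5 was at 153 and 148 CPM in GFP ESCs and at 24.0 to 53.8 CPM in scramble embryos. ESC and embryo cDNA were made with different kits, so these levels stand side by side without a test. Mrps5, Mrps21 and Mrps33 each have a processed pseudogene of at least 97% identity in the tables that could take a part of their counts.

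**Figure D5:**
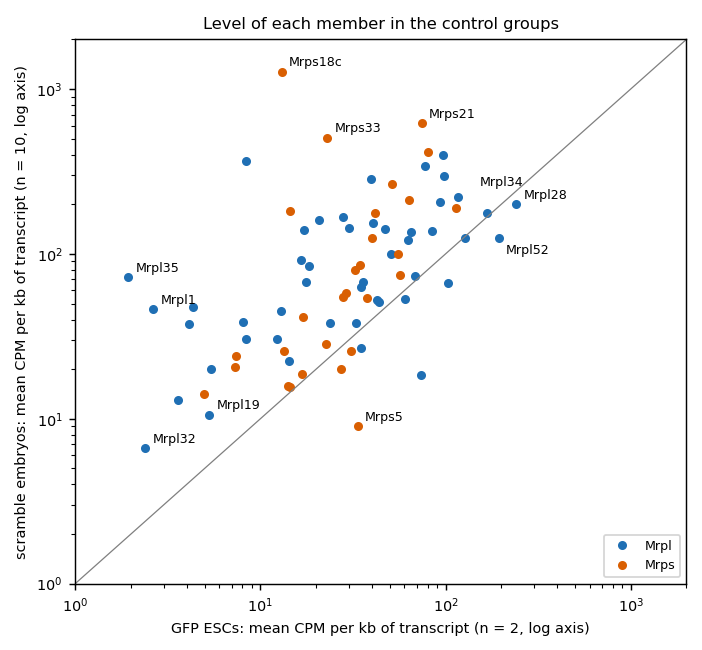
Mean CPM per kilobase of transcript (log axes) of each of the 77 members in GFP ESCs (2 libraries) and scramble embryos (10 libraries), Mrpl in blue and Mrps in orange, with the line of equal values. Mrps18c lies far above the line (13.1 in ESCs and 1272 in embryos) and Mrps5 below it (33.7 and 8.98).

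The spread between libraries was small in ESCs and large in embryos. The median coefficient of variation of a member was 4.5% over the 2 GFP libraries, 34.0% over the 10 scramble embryos and 28.5% over the 6 Klf5 siRNA embryos. In scramble embryos it ran from 16.9% (Mrps22) to 72.0% (Mrpl37). Scramble 2 had the lowest level over the family, with a mean log2 CPM 0.43 below the control mean, and scramble 9 the highest, 0.38 above it. The 6 Klf5 siRNA embryos lay 0.85 to 1.14 above that mean, and 64 to 73 of the 77 members were above their control mean in each of them. Scramble embryos 5 and 6, which stood apart for the cytosolic family, were at 0.01 and 0.18. Without these libraries 53 members rose, 46 of them among the 49, with a median log2 fold change of 0.90, beside 12.8% of all genes tested.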

How the data were processed

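Polyadenylated RNA was measured in 4 ESC and 16 embryo libraries. Per the labels' protocols, cDNA came from TruSeq v2 reagents in ESCs and from the SMARTseq-V4 kit in embryos, and the NEBNext Ultra II kit made all libraries. The authors deposited estimated counts (expected counts) for Ensembl genes, without scaling. The submitters' processing notes name kallisto 0.46 and mm10. The annotation release, the step from transcripts to genes and the use of strand are not given in the sources used here. Of 30265 identifiers 29910 were matched to a symbol of GENCODE M21 (GRCm38), which also gave positions and lengths (the median over protein-coding transcripts of the basic set). Promoter windows are RefSeq's.

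Counts were rounded to whole numbers, a change of at most 0.000756% in a library total. Each experiment was fitted alone in edgeR 4.0.16 (filterByExpr, lowest count 10, TMM scaling, robust quasi-likelihood F test), with p adjusted by Benjamini and Hochberg over all genes tested and a threshold of 0.05. All 77 members passed the filter in both. The common biological coefficient of variation was 0.163 in ESCs and 0.739 in embryos. CPM use TMM-scaled library sizes, log2 CPM a prior count of 2, and fold changes are fitted values. Every pair of libraries in a group differed beyond sampling noise (chi-square of at least 21.1 for each degree of freedom), and the fits were tested on simulated data. Near-identical stretches were sought with BLAST 2.17.0. The precision of each value is set by library totals of 14701519 to 37482631 counts and by the spread between libraries.

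The members and lists were chosen with earlier results of these data known. Genes named were, per comparison, up to 8 members called in each direction by smallest p (or 3 by p where fewer than 3 passed), the 3 highest and 3 lowest per length in each control group, Mrpl10, Mrpl12, Mrps12, the Mrps18 genes, Mrpl58, Mrps36, the 5 subunits with other names, up to 3 called genes of each other list (or the 1 with the smallest p), and Klf5. Not all of these are printed, and some genes are not reported here. Named beyond this rule, after their values were seen, were Mrpl37, Mrpl46, Mrpl51, Mrps22, Qrsl1 and the promoter partners. Alternatives were other scalings, DESeq2 1.42.0, limma voom 3.58.1, other filters, a length offset (lowess span 0.3), each library left out, a replicate block, and in embryos a mitochondrial covariate, libraries left out in pairs and gene families left out before scaling. The crossed block, the 12 embryos of the block without it and the omission of scramble 5 and 6 were chosen after seeing the data.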

Additional observations from a re-analysis of the deposited data

Results flagged for a closer look

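1 value was flagged among 78 groups of 6 or 10 embryos, where chance alone flags about 1 in 20 groups. Mrpl22 was at 68.2 CPM in scramble 2, the lowest of the 10 scramble embryos, and on the log2 CPM scale its gap to the next value was 0.543 of the range of the group. On the CPM scale that share was 0.445, below the critical value of 0.466 for 10 samples. Scramble 2 also had the lowest mean level of the family. Without it 47 members rose, all among the 49, beside 10.6% of all genes tested.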

How the results depend on the processing

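Over 31 settings in embryos, 19 members rose in every one (among them Mrpl22, Mrpl21, Mrps24, Mrpl11, Mrpl53, Mrpl49 and Mrps11), 58 had a positive change in every one and 14 were called higher in none. The count that rose was 51 with RLE scaling, 53 with upper quartile scaling, 55 with DESeq2 or a filter at 5 CPM, 52 with limma voom and 43 without a filter. Of all genes, in the same order of settings, 12.1%, 12.3%, 9.19%, 16.4%, 11.4% and 8.83% rose. Total counts gave 30 higher, 1 lower and a median of 0.56, and the length offset 37 higher, 1 lower and a median of 0.61. Of all genes 6.02% and 10.4% rose in these fits. Leaving out 1 embryo gave 44 to 52 higher, 0 to 1 lower (1 only without Klf5 siRNA 3) and medians of 0.90 to 1.03, and leaving out Klf5 siRNA 2 and 4 gave 48 higher. Of all genes, 10.2% to 12.5% rose with 1 embryo left out and 8.91% without those 2. In ESCs 1 member rose without a filter and with a filter at 5 CPM (Mrpl12 in both) and 3 with DESeq2, beside 2.43%, 3.55% and 3.68% of all genes. The ESC median was 0.10 with RLE or upper quartile scaling, 0.20 with total counts, 0.12 with DESeq2, 0.13 without a filter, 0.18 with the length offset and 0.089 to 0.16 with 1 library left out. A lone remaining ESC library of a group was assumed to vary like the other group. mt-Atp8 in embryos reversed from 0.13 to -1.78 with the length offset (edgeR adjusted p = 0.0309). No label states that replicate numbers pair the libraries. Same-numbered libraries correlated at -0.11 to 0.11 in embryos, and others at -0.21 to 0.30. In ESCs they correlated at -0.11, but with 2 libraries in each group the values for same and crossed numbers differ only in sign. That value cannot decide whether a pairing exists. With the replicate block 0 members were called in ESCs. In the 12 embryos whose numbers both groups share, 36 rose with the block and 42 without it. Of all genes tested in those embryos 5.35% and 8.16% rose. The crossed pairing in ESCs called 1 member higher (Mrpl12), beside 5.00% of all genes. The cause of these differences was not tested. Embryo counts came from amplified cDNA, so their number does not measure independent molecules.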
